A study of Mus musculus with 21 samples.

Results

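Insulin and insulin-like growth factor 1 act through a shared cascade, and 10 genes listed with it were followed in the left ventricle of pressure-loaded mouse hearts. They are the receptors Insr and Igf1r, the ligand Igf1, the adaptors Irs1 and Irs2, the regulatory subunit Pik3r1, the kinase Akt2, the transcription factors Foxo1 and Foxo3, and the pseudokinase Trib1. The genes were found by symbol among 22136 genes, and all 10 passed the low-count filter with 12100 genes tested. They were chosen by measured values as well as by function: the difference of Irs2 between AB_LLVNS20min_4w (20 min stimulation from week 4) and AB_Implant (device not activated) was taken as known when they were picked, and other values may have entered the choice. All 10 genes in that comparison are therefore described with no p-value, and counts of calls there are not read as results. For Irs2 the fold changes in other comparisons that use either group's libraries are also a description, with no p-value, and counts of members past a threshold there include it on the same footing. Whether Trib1 was picked the same way is not known. Its p-values in comparisons that use these libraries are therefore a description and not support for a difference.

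Polyadenylated RNA was sequenced from 21 left ventricles, 3 in each of 7 groups. All mice were male, wild type C57BL/6, 8 weeks old at surgery, and all hearts were taken 8 weeks later. In 4 groups the ascending aorta was constricted and the left cervical vagus nerve was then stimulated daily at 4 µA and 2 Hz by a biodegradable triboelectric nanogenerator, an implant that turns motion into current. AB_LLVNS20min_1w, AB_LLVNS20min_2w and AB_LLVNS20min_4w had 20 min sessions from week 1, 2 or 4, for 7, 6 and 4 weeks. AB_LLVNS10min_1w had 10 min sessions from week 1 for 7 weeks. AB_Implant mice were banded and carried the device from week 1 without activation. AB mice were banded only, and Sham mice had the chest opened without constriction. Banding is a surgical model of pressure load, and the start of stimulation and its duration move together, so the effects of start and duration cannot be told apart. No implant week is given for the stimulated groups, so the time since implantation may differ from that in AB_Implant.

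Insulin and IGF1 bind receptor tyrosine kinases at the cell surface. The activated receptors phosphorylate the IRS adaptors, which recruit phosphoinositide 3-kinase through its regulatory subunit and so activate Akt. Akt phosphorylates FoxO factors and keeps them out of the nucleus, where they would otherwise switch on genes of fasting, atrophy and stress resistance. In heart muscle the cascade is known for glucose uptake and for physiological growth. Irs2 is a known FoxO and CREB target in liver, and Trib1 is a scaffold that brings the ubiquitin ligase COP1 to C/EBP proteins.

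The promoters of the Irs adaptors are shown because Irs2 had the widest spread over its nonzero values and Irs1 is its closest relative. RefSeq promoters (GRCm38.p6, 250 bases before to 50 after the start) were matched for 8 of the 10 genes. Capitals mark the insulin response element core TGTTTTG and the E-box CACGTG, searched on both strands. The minus-strand sequences at chr8:11008880-11009179 for Irs2 and chr1:82291390-82291689 for Irs1 are written 5′ to 3′ along the gene.
Irs2: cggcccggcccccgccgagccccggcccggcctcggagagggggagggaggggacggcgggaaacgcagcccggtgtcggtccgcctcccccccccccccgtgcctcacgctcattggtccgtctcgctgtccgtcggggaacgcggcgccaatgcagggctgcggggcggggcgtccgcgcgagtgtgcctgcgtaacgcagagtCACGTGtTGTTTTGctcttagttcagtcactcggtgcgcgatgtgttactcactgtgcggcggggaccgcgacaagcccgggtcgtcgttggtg
Irs1: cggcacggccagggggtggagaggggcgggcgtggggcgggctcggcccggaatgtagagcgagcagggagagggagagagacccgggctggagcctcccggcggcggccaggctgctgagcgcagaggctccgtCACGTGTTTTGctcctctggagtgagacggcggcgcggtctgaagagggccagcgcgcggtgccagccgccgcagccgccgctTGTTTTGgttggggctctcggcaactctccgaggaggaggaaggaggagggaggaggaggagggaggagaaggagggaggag
In Irs2 the E-box began 44 bases before the start and was followed, after 1 base, by the insulin response core at 37 bases. In Irs1 an E-box at 115 bases overlapped an insulin response core at 111 bases by 2 letters, and a second core lay at 32 bases. The core stood in 6.28% and the E-box in 7.15% of 32851 promoters of this length. Among the 12 promoters of the 8 matched genes, those of Irs1 and Irs2 held them. The cAMP response element TGACGTCA (1.79% of all promoters) and the FoxO core GTAAACA (3.65%) were found in 0 of the 12. These matches describe letters and not binding.

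Library totals ran from 11577509 to 19414865 counts, and 13 mitochondrial genes took 34.4% to 55.3% of them. Values below are CPM, read counts scaled to a common library total with TMM factors. Where groups are said not to overlap, the share of all genes that do the same was not counted, and nothing is read from it. Libraries differed in the slope of log2 CPM on log2 transcript length. That slope was -0.254 to -0.212 in the 3 AB_LLVNS20min_4w libraries, 0.031 to 0.208 in AB_Implant, -0.236 to 0.043 in AB and 0.013 to 0.213 in Sham. It was steepest in AB_LLVNS20min_1w replicate 2 (0.374), AB_LLVNS20min_2w replicate 1 (0.387) and AB_LLVNS10min_1w replicate 2 (0.361). Cardiomyocyte markers were abundant in every library: all 8 were tested and their summed level lay between 39260 and 76149 CPM. In bulk tissue, fewer cells of a type and less RNA per cell cannot be told apart.

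Irs2 (ENSMUSG00000038894, chromosome 8, 10984681 to 11008458, GRCm38) carries the signal of the insulin receptor to phosphoinositide 3-kinase. Its level was 0.455, 0.253 and 0.415 CPM in AB_LLVNS20min_4w hearts (5, 3 and 5 counts), against 9.05, 5.07 and 20.9 CPM in AB_Implant hearts (136, 67 and 504 counts). The groups did not overlap, and the fitted log2 fold change was -4.94 ± 0.98 (SE), given as a description. The other stimulated groups had 1.52, 3.18 and 1.61 CPM in AB_LLVNS20min_1w, 2.47, 0.578 and 1.66 CPM in AB_LLVNS20min_2w, and 0.592, 11.6 and 3.31 CPM in AB_LLVNS10min_1w. AB hearts had 4.04, 0.789 and 1.49 CPM, and Sham hearts 4.64, 2.82 and 9.37 CPM. Every AB_Implant library exceeded every AB library and every library of the 20 min groups, whereas AB_LLVNS10min_1w and Sham overlapped with AB_Implant. The highest value of AB_LLVNS10min_1w came from its replicate 2, a library of steep length slope. Over the 21 libraries the log2 CPM of Irs2 correlated with the length slope (Pearson r = 0.72, and 0.87 without the 3 steepest). With the slope as a covariate, the log2 fold change of AB_LLVNS20min_4w against AB_Implant was -3.61.

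Trib1 (ENSMUSG00000032501, chromosome 15, 59648350 to 59657099) was highest in the 3 AB_Implant libraries, which had 11.4, 9.83 and 17.2 CPM. All 18 other libraries lay between 1.08 and 6.51 CPM. The stimulated groups had 4.11, 5.04 and 2.52 CPM in AB_LLVNS20min_1w, 6.51, 1.73 and 5.05 CPM in AB_LLVNS20min_2w, 1.82, 3.04 and 1.08 CPM in AB_LLVNS20min_4w, and 3.89, 6.46 and 3.89 CPM in AB_LLVNS10min_1w. AB hearts had 4.25, 2.07 and 4.91 CPM and Sham hearts 2.94, 3.47 and 4.96 CPM. Against AB_Implant the log2 fold change in AB_LLVNS20min_4w was -2.69 ± 0.49 (SE), again without a test, and -2.10 with the length slope as a covariate. The log2 CPM of Trib1 correlated with the slope over the 21 libraries (Pearson r = 0.62, and 0.69 without the 3 steepest).

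**Figure D1:**
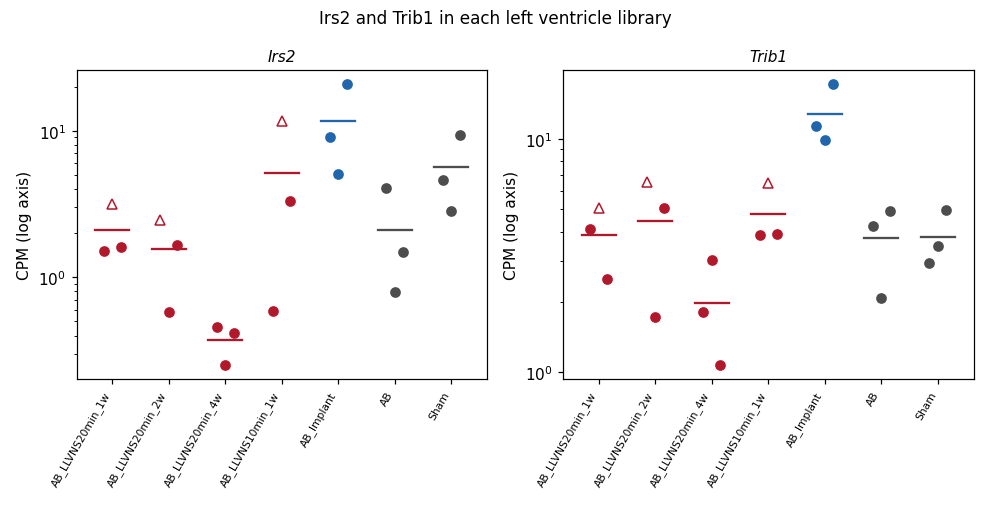
Level of Irs2 (left) and Trib1 (right) in CPM on a log axis, 1 point per library and a bar at each group's mean. Open triangles mark the 3 libraries of the steepest length slopes. All 3 AB_Implant libraries lie above the other 18 for Trib1, and Irs2 is lowest in AB_LLVNS20min_4w (0.253 to 0.455 CPM).

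The effect of carrying the device unactivated was read from AB_Implant against AB. The mean of Irs2 was 11.7 ± 8.23 CPM in AB_Implant and 2.11 ± 1.71 CPM in AB (SD, n = 3 each), a log2 fold change of 2.45 ± 0.82 (SE). Trib1 averaged 12.8 ± 3.88 CPM in AB_Implant and 3.74 ± 1.49 CPM in AB (SD, n = 3 each), a log2 fold change of 1.76 ± 0.46 with an adjusted p of 0.32. These p-values, as all below, come from edgeR's quasi-likelihood test with Benjamini-Hochberg adjustment over all 12100 genes. By that test 0 of 10 members passed, beside 0% of all genes. At an unadjusted p under 0.05, 2 members (Irs2 and Trib1) stood beside 9.08% of all genes. DESeq2 called 1 member, Trib1 (adjusted p = 0.0377), among 68 of all genes. The median log2 fold change was 0.82 over the 10 members and 0.01 over all genes, and 8 of 10 were positive. The mitochondrial share also differed, at 34.4% to 44.4% of counts in AB_Implant and 45.7% or more in AB, and its part in the result was not tested.

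Against Sham, AB_Implant hearts had a higher mean of Trib1 (12.8 ± 3.88 CPM in AB_Implant and 3.79 ± 1.05 CPM in Sham, SD, n = 3 each). The log2 fold change of Trib1 was 1.75 ± 0.46 (SE) with an adjusted p of 0.121 by edgeR. It passed with the length slope as a covariate (adjusted p = 0.00522), by DESeq2 (0.0129), without the 3 steepest libraries (0.0336) and in a fit on both groups alone (0.0494). In the 26 others of 30 alternative settings it did not pass. Irs2 had a log2 fold change of 1.06 ± 0.77, and its groups overlapped. By edgeR 0 of 10 members passed beside 0.281% of all genes. At an unadjusted p under 0.05, 2 members (Akt2 and Trib1) stood beside 9.64% of all genes. DESeq2 called the same 2 members, among 236 of all genes. The median log2 fold change was 0.20 over the members and -0.01 over all genes.

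The stimulated groups from weeks 1 and 2 share the AB_Implant libraries as their comparison, so their fold changes are not independent of each other or of the comparison with AB. For AB_LLVNS20min_1w, Irs2 had a log2 fold change of -2.46 ± 0.82 (SE) and Trib1 -1.71 ± 0.46 (adjusted p = 0.152 by edgeR). There 0 of 10 members passed beside 0.463% of all genes, 2 had an unadjusted p under 0.05 beside 8.77%, and DESeq2 called 1 member, Trib1 (adjusted p = 0.0221). Of all genes DESeq2 called more in this comparison than the 56 called by edgeR. For AB_LLVNS20min_2w, Irs2 had -2.85 ± 0.83 and Trib1 -1.51 ± 0.46 (adjusted p = 0.454 by edgeR). There 0 of 10 passed beside 0.174%, 2 had an unadjusted p under 0.05 beside 5.1%, and DESeq2 called 0. Irs2 and Trib1 had libraries that did not overlap with AB_Implant in either group, a description without the share of all genes for which this held. With the length slope as a covariate Trib1 passed against AB_Implant in AB_LLVNS20min_1w (adjusted p = 0.00663) and in AB_LLVNS20min_2w (0.0462). Without the 3 steepest libraries it passed in both groups as well (adjusted p = 0.0488 and 0.0255). Of 30 alternative settings, 27 for AB_LLVNS20min_1w and 28 for AB_LLVNS20min_2w did not pass. The p-values of Trib1 reuse AB_Implant libraries that may have entered the choice, and are a description.

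With 10 min sessions from week 1, Trib1 had a log2 fold change of -1.43 ± 0.45 (SE) against AB_Implant, with an adjusted p of 0.359 by edgeR and 0.0334 with the length covariate. In the 29 others of 30 alternative settings it did not pass. Irs2 was at -1.16 ± 0.77, and without AB_Implant replicate 3 its value was -0.43. Here 0 of 10 members passed by edgeR beside 0.157% of all genes, 1 (Trib1) had an unadjusted p under 0.05 beside 6.68%, and DESeq2 called 0. In AB_LLVNS20min_4w against AB_Implant, the comparison known from the choice, 2 members (Irs2 and Trib1) were among 39 called genes, 0.322% of all tested. Nothing is read from that count. Its other members ran from -2.66 for Foxo1 to 0.92 for Igf1 on the log2 scale, with a median of -1.28 over the 10 and -0.02 over all genes.

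Over the 4 stimulated groups together against AB and AB_Implant, Irs2 had a log2 fold change of -1.63 ± 0.49 (SE) and Trib1 -0.95 ± 0.27 (adjusted p = 0.332 by edgeR). The stimulated libraries of Irs2 ran from 0.253 to 11.6 CPM with a median of 1.56, and the unstimulated banded ones from 0.789 to 20.9 CPM with a median of 4.56, so they overlapped. By edgeR 0 of 10 members passed beside 0.438% of all genes, 2 (Irs2 and Trib1) had an unadjusted p under 0.05 beside 5%, and DESeq2 called 0. Of 11 hepatocyte markers 9 passed the low-count filter. Several of these, among them Gc, Fabp1 and Ambp, passed it only through stimulated libraries, so no test of the markers is read. The summed level of the 11 was 22.5 to 119 CPM in the 12 stimulated libraries, against 0.378 to 3.65 CPM in the 6 unstimulated banded ones and 0.501 to 0.85 CPM in Sham. Alb, serum albumin, was 9.18 to 76.6 CPM in stimulated libraries, 0 to 0.0756 CPM in AB_Implant and 0.0686 to 1.18 CPM in AB. Their part in the result was not tested.

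Set against AB, which shares no library with AB_Implant, both genes had log2 fold changes nearer to 0 than against AB_Implant in AB_LLVNS20min_1w and AB_LLVNS20min_2w. Trib1 had log2 fold changes of 0.05 in AB_LLVNS20min_1w, 0.25 in AB_LLVNS20min_2w, -0.93 in AB_LLVNS20min_4w and 0.33 in AB_LLVNS10min_1w, with adjusted p of at least 0.753 by edgeR. Irs2 was at -0.01 ± 0.81 in AB_LLVNS20min_1w, -0.39 ± 0.82 in AB_LLVNS20min_2w, -2.49 ± 0.97 in AB_LLVNS20min_4w and 1.30 ± 0.80 in AB_LLVNS10min_1w (SE). All 3 AB_LLVNS20min_4w libraries lay below all 3 AB libraries in Irs2. The AB_LLVNS10min_1w value rested on 1 library, since without its replicate 2 it was -0.10. By edgeR 0 of 10 members passed in each of the 4 comparisons with AB, beside 0.289%, 0.107%, 0.149% and 0.0496% of all genes in the order 1, 2 and 4 weeks and 10 min. At an unadjusted p under 0.05 there were 0, 1 (Insr), 1 (Irs2) and 1 (Igf1) of 10 in the same order, beside 4.3%, 3.97%, 5.19% and 5.23% of all genes, and DESeq2 called 0 in each.

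**Figure D2:**
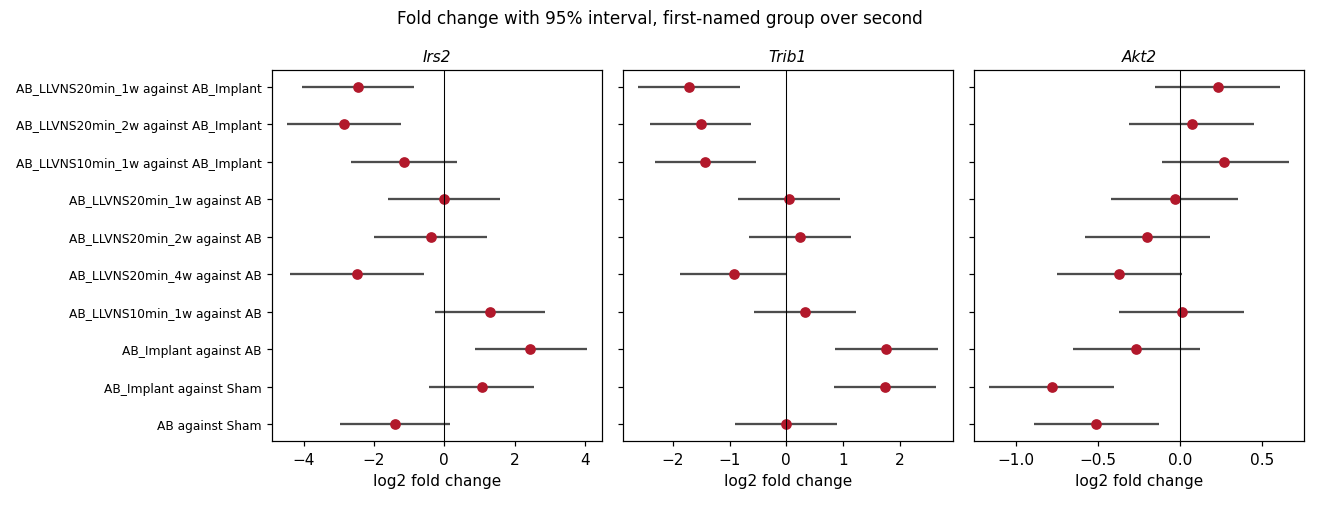
Log2 fold changes of Irs2, Trib1 and Akt2 with 95% intervals (not adjusted for the number of genes) in 10 comparisons, first-named group over the second. Trib1 lies near 1.75 in both comparisons of AB_Implant with AB or Sham and near 0 for AB against Sham (-0.01), and Akt2 is lowest for AB_Implant against Sham (-0.78).

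Sessions of 20 min were compared with sessions of 10 min from the same week. Irs2 averaged 2.10 ± 0.932 CPM in AB_LLVNS20min_1w and 5.17 ± 5.75 CPM in AB_LLVNS10min_1w (SD, n = 3 each), with a log2 fold change of -1.31 ± 0.80 (SE). Without AB_LLVNS10min_1w replicate 2 the value turned to 0.09. By edgeR 0 of 10 members passed beside 0.0992% of all genes, 0 had an unadjusted p under 0.05 beside 4.54%, and DESeq2 called 0. An F test over the start weeks 1, 2 and 4 gave adjusted p from 0.517 to 0.769 for the members. By it 0 of 10 members and 0% of all genes passed, 2 members (Pik3r1 and Foxo1) had an unadjusted p under 0.05 beside 9.24% of all genes, and DESeq2 called 0.

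Akt2 (ENSMUSG00000004056, chromosome 7, 27591552 to 27640826), the Akt isoform best known for insulin-driven glucose uptake, had the highest level per length of the 10 genes, at 9.80 CPM per kb of exon. It was 55.8, 68.0 and 53.5 CPM in AB_Implant and 92.8, 55.2 and 65.0 CPM in AB, against 121, 97.5 and 85.5 CPM in Sham. The AB_Implant and Sham libraries did not overlap, while 1 AB library lay inside the Sham range. Against Sham the log2 fold change was -0.78 ± 0.19 (SE) in AB_Implant with an adjusted p of 0.101 by edgeR, and -0.51 ± 0.19 in AB with an adjusted p of 0.836. In AB_Implant it passed with the length covariate (adjusted p = 0.00757), by DESeq2 (0.00997) and without the 3 steepest libraries (0.0393). In the 27 others of 30 alternative settings it did not pass. Stimulated hearts had 51.5 to 76.2 CPM, all 12 below the lowest Sham library, and that difference from Sham was not tested. For AB against Sham 0 of 10 members passed beside 0% of all genes, 1 (Akt2) had an unadjusted p under 0.05 beside 4.99%, and DESeq2 called 0. The median log2 fold change in AB against Sham was -0.55 over the 10 members and -0.02 over all genes, with 8 negative.

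Insr (ENSMUSG00000005534, chromosome 8, 3122061 to 3279617), the insulin receptor, was highest in 3 single libraries from different groups. It had 17.4, 60.8 and 21.2 CPM in AB_LLVNS20min_1w, 71.5, 22.7 and 21.3 CPM in AB_LLVNS20min_2w, 21.5, 20.0 and 14.1 CPM in AB_LLVNS20min_4w, and 20.6, 69.8 and 22.3 CPM in AB_LLVNS10min_1w. AB_Implant had 24.8, 27.0 and 38.2 CPM, AB 15.8, 16.0 and 20.1 CPM and Sham 32.8, 14.9 and 19.5 CPM. The 3 libraries of the steepest length slopes lay above all 18 others, whose highest value was 38.2 CPM. All 3 AB_Implant libraries lay above all 3 AB libraries, with a log2 fold change of 0.79 ± 0.54 (SE) and an adjusted p of 0.645 by edgeR.

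Pik3r1 (ENSMUSG00000041417, chromosome 13, 101680563 to 101768217), which encodes the p85 alpha regulatory subunit, showed the same 3 libraries on top. They had 30.6, 39.6 and 40.2 CPM, and the 18 others at most 28.6 CPM with a median of 4.96. The highest of the 18 was a Sham library, and Sham averaged 13.7 ± 12.9 CPM (SD, n = 3). The 3 AB_LLVNS20min_4w libraries were at 1.33 to 2.46 CPM, against 5.26 to 11.1 CPM in AB_Implant. The log2 fold change of AB_LLVNS20min_4w against AB_Implant was -2.03 ± 1.11 (SE), and 0.10 with the length slope as a covariate. Against AB the groups from weeks 1 and 2 were at 1.49 and 1.76 and turned to -0.26 and -0.58 without the 3 libraries.

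Foxo3 (ENSMUSG00000048756, chromosome 10, 42181841 to 42276755), which drives autophagy and atrophy genes in muscle, had 8.86 to 15.1 CPM in these 3 libraries and at most 7.84 CPM in the 18 others. Foxo1 (ENSMUSG00000044167, chromosome 3, 52268336 to 52353221), its relative and a main nuclear target of insulin signalling, had 0.546, 0.253 and 0.415 CPM in AB_LLVNS20min_4w. Its AB_Implant libraries had 1.53, 3.18 and 3.07 CPM, its AB libraries 1.30, 0.887 and 1.66 CPM and its Sham libraries 3.86, 1.80 and 2.56 CPM. All 3 AB_LLVNS20min_4w libraries were below all libraries of the 3 unstimulated groups. The lowest of the 21 libraries was AB_LLVNS20min_1w replicate 3, at 0.101 CPM (1 count). Against AB the log2 fold change of Foxo1 in AB_LLVNS20min_4w was -1.67 ± 0.87 (SE, adjusted p = 0.753 by edgeR), and -1.02 with the length slope as a covariate. The log2 CPM of Foxo1 correlated with the slope over the 21 libraries (Pearson r = 0.84, and 0.80 without the 3 steepest).

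Irs1 (ENSMUSG00000055980, chromosome 1, 82233101 to 82291416), the adaptor tied to insulin action in muscle, had the lowest level per length of the 10, at 0.144 CPM per kb. It ran from 0 to 74 counts. Of the stimulated libraries the 3 with steep slopes had 2.82 to 3.32 CPM and the 9 others 0.253 to 0.909 CPM. AB_Implant had 2.00, 0.907 and 1.78 CPM, AB 1.03, 0 and 1.49 CPM, and Sham 3.14, 1.80 and 1.20 CPM. None of the intervals of Irs1 between groups left out 0 in the comparisons made, and at these counts the SE of a log2 fold change was 0.92 or more wherever the groups were compared singly.

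**Figure D3:**
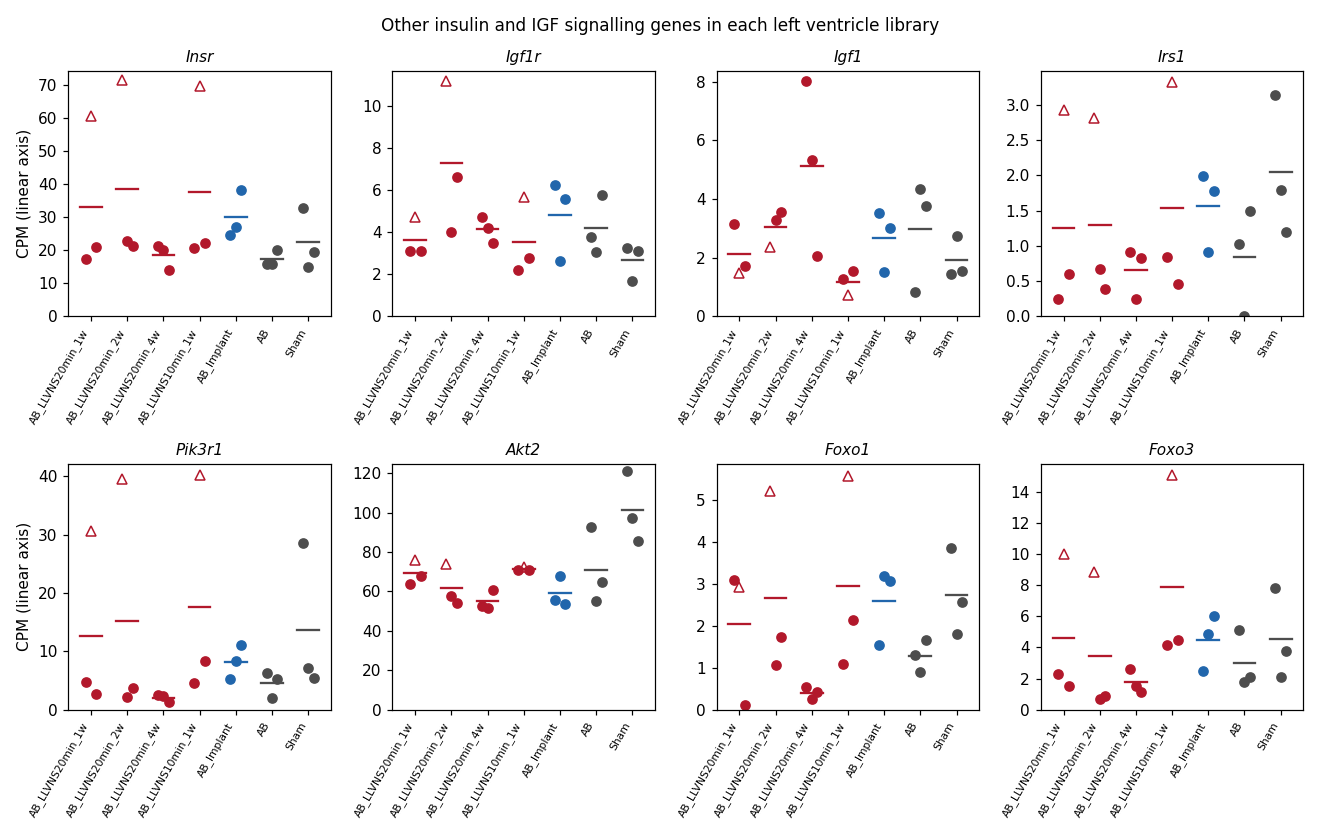
Level of the other 8 genes in CPM on linear axes that start at 0, 1 point per library and a bar at each group's mean. Open triangles mark the 3 libraries of the steepest length slopes, which lie on top for Insr, Pik3r1 and Foxo3, and Akt2 is highest in Sham (85.5 to 121 CPM).

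The IGF1 receptor and its ligand were not highest in all 3 of these libraries. Igf1r (ENSMUSG00000005533, chromosome 7, 67952827 to 68233668) averaged 7.30 ± 3.64 CPM in AB_LLVNS20min_2w, 4.83 ± 1.92 CPM in AB_Implant, 4.21 ± 1.42 CPM in AB and 2.68 ± 0.876 CPM in Sham (SD, n = 3 each). The log2 fold change of AB_Implant against Sham was 0.85 ± 0.44 (SE, adjusted p = 0.583 by edgeR), and of AB against Sham 0.65 ± 0.44 (adjusted p = 0.836). Igf1 (ENSMUSG00000020053, chromosome 10, 87858265 to 87937042), a growth factor made in liver and locally by heart stromal cells, had 8.00, 5.32 and 2.07 CPM in AB_LLVNS20min_4w. It had 1.27, 0.738 and 1.56 CPM in AB_LLVNS10min_1w, against 0.823, 4.34 and 3.75 CPM in AB, with a log2 fold change of -1.32 ± 0.58 (SE, adjusted p = 0.874 by edgeR). The 2 groups overlapped. Macrophage markers, a list of 7 genes, summed to 99.6 to 160 CPM in AB_LLVNS10min_1w and 132 to 286 CPM in AB, and fibroblast markers, also 7, to 1037 to 1476 CPM in AB_LLVNS10min_1w and 1370 to 2007 CPM in AB. Their part in the level of Igf1 was not tested.

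**Figure D4:**
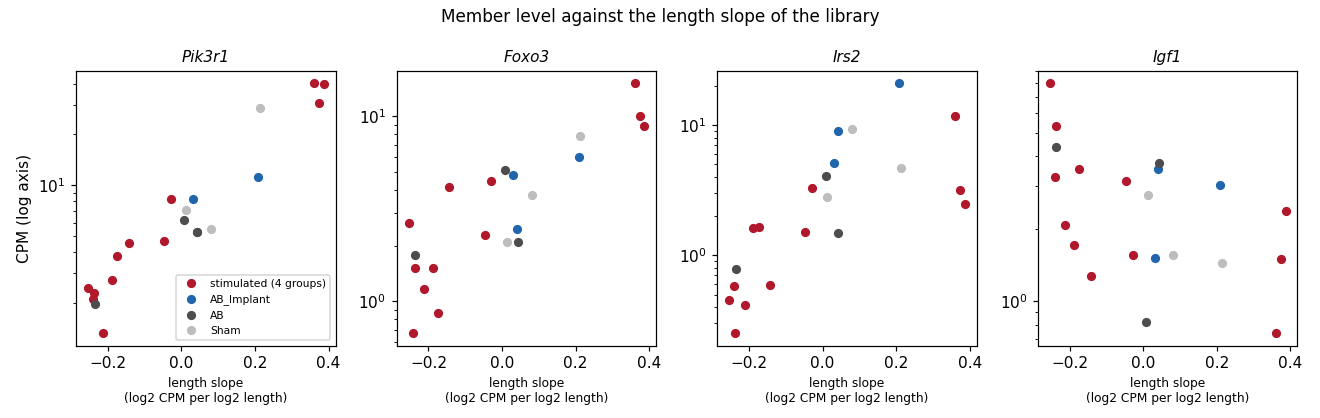
Level of Pik3r1, Foxo3, Irs2 and Igf1 in CPM on log axes against the length slope of each library (log2 CPM per log2 of transcript length), 21 libraries. Pik3r1 and Foxo3 are highest in the 3 libraries above 0.36. Irs2 is highest in AB_Implant replicate 3 (20.9 CPM at a slope of 0.208) and Igf1 in AB_LLVNS20min_4w replicate 1 (8.00 CPM at -0.254). The Pearson correlation of log2 CPM with the slope is 0.95 for Pik3r1, 0.87 for Foxo3, 0.72 for Irs2 and -0.51 for Igf1. Without the 3 libraries it is 0.90, 0.76, 0.87 and -0.43 in the same order.

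The genes of most similar pattern were taken as those with the highest Pearson correlation of log2 CPM over the 21 libraries, as a description. For Irs2 these were Sik1, a kinase induced by cAMP (r = 0.92), Colgalt1 (0.90) and Ppp4r1 (0.88). For Trib1 they were Dnajb4, a chaperone of the Hsp40 family (0.88), Wdr1 (0.86) and Bnip2 (0.85). Igf1 was nearest to the matrix genes Emilin1, Col1a1 and Mfap5 (0.85 each). Akt2 was nearest to Dglucy (0.92), Ppp2r5d (0.90) and Got2, a mitochondrial transaminase (0.89). Pik3r1 was nearest to the coactivator gene Crebbp (0.97), Ubr2 (0.97) and Col4a3bp (0.96), and Insr to Hipk3, Tnks and Nf1 (0.93 each). For the remaining genes the nearest were Dnmt3a for Irs1 (0.91), Fgf1 for Foxo1 (0.92), Ubr2 for Foxo3 (0.92) and Cavin4 for Igf1r (0.87). All 21 libraries share depth and length slope differences, which enter each of these values.

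Other genes of the pathway were taken as lists without the 10 members. By edgeR, 0 of 11 ligands and binding proteins, 0 of 15 adaptor and PI3K genes, 0 of 22 Akt branch genes and 0 of 21 inhibitors passed in any of the 13 contrasts or the F test. At an unadjusted p under 0.05 their counts reached 2, 3, 6 and 7 genes, in that order of lists. The counts of 6 and 7 fell in AB_LLVNS20min_4w against AB_Implant, where 26.3% of all genes had such a p. The count of 3 fell there and in AB_LLVNS20min_1w against AB_Implant (8.77% of all genes). The count of 2 fell in AB against Sham (4.99%), AB_Implant against Sham (9.64%) and the F test (9.24%). DESeq2 called at most 0, 1, 1 and 1. Igfbp7, a secreted IGF-binding protein of the vessel wall, averaged 196 ± 69.4 CPM in AB_Implant, 194 ± 80.9 CPM in AB and 91.4 ± 30.2 CPM in Sham (SD, n = 3 each). Its log2 fold change was 1.10 ± 0.49 for AB_Implant against Sham (SE, adjusted p = 0.48 by edgeR) and 0.02 ± 0.49 for AB_Implant against AB. Akt1, the main Akt isoform of growth, lay between -0.41 and 0.34 on the log2 fold change scale over the 13 contrasts. Grb14, an adaptor that inhibits the insulin receptor, lay between -0.47 for AB_Implant against Sham and 0.58 for AB_LLVNS20min_4w against AB_Implant. The inositol phosphatase gene Inppl1 lay between -0.40 and 0.05. The untested genes of these lists were Ins1, Ins2, Igfbp1, Insrr, Pappa, Pappa2, Irs3, Irs4, Pik3r3 and Socs1.

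Of 27 FoxO target genes, 2 passed in at least 1 comparison. Cebpb passed in 7 comparisons, in which 0.0992% to 0.463% of all genes passed, and Cdkn1a in 1 of these. The lists were chosen with earlier results of these data known. The p-values of both genes are therefore a description and not support for a difference. Cebpb, which encodes a C/EBP transcription factor of inflammation, averaged 0.824 ± 0.704 CPM in AB_LLVNS20min_1w and 48.6 ± 17.4 CPM in AB_LLVNS10min_1w (SD, n = 3 each). It was lower with 20 min than with 10 min sessions from week 1 (log2 fold change -5.86 ± 0.86 SE, adjusted p = 0.00851 by edgeR). Its mean was 39.5 ± 5.11 CPM in AB_Implant, 41.0 ± 22.4 CPM in AB and 2.44 ± 1.49 CPM in Sham (SD, n = 3 each). Between AB_Implant and AB its log2 fold change was -0.06 ± 0.65 (SE, adjusted p = 0.978 by edgeR). Cdkn1a, the cell cycle inhibitor p21, averaged 4.25 ± 1.51 CPM in AB_LLVNS20min_1w and 42.7 ± 22.7 CPM in AB_Implant (SD, n = 3 each). The log2 fold change between these groups was -3.31 ± 0.66 (SE, adjusted p = 0.0274 by edgeR). Cdkn1a averaged 7.30 ± 1.05 CPM in AB and 21.3 ± 11.6 CPM in Sham (SD, n = 3 each). For AB_LLVNS20min_1w against AB its log2 fold change was -0.77 ± 0.63 (SE, adjusted p = 0.974 by edgeR). The median over the 27 genes was -0.37 for AB_LLVNS20min_1w against AB_Implant and 0.50 for AB_Implant against AB, beside 0.05 and 0.01 over all genes.

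Of 20 CREB and glucocorticoid response genes 0 passed by edgeR in any comparison, 1 to 11 had an unadjusted p under 0.05, and DESeq2 called at most 6. The 11 were in AB_LLVNS20min_1w against AB_Implant, beside 8.77% of all genes, and the 6 in AB_LLVNS20min_4w against AB_Implant. In the latter, the comparison known from the choice, 26.3% of all genes had an unadjusted p under 0.05 by edgeR. DESeq2 called many more of all genes there than the 39 called by edgeR, and nothing is read from the 6. The median log2 fold change of the 20 genes was -0.99 for AB_LLVNS20min_1w against AB_Implant, -0.93 for AB_LLVNS20min_4w against AB_Implant and 0.87 for AB_Implant against AB. For 20 min against 10 min sessions from week 1 all 20 were negative, with a median of -0.71 beside 0.01 over all genes, and 0 passed by edgeR or DESeq2.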

How the data were processed

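The authors deposited 1 table of raw counts per gene for 21 libraries; its name speaks of normalized counts, and they were taken as raw since every value (100%) was whole and totals differed between libraries. The submitters' processing notes name HISAT2 (version 2.1.0) and featureCounts (1.6.0) on GRCm38, and also cutadapt (1.11), FastQC (0.11.9) and edgeR (3.32.1). Strandedness is not given in the sources used here, so overlapping and antisense genes cannot be separated. Each library is labelled a biological replicate.

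Genes with at least 1 CPM (by library total) in at least 3 libraries were kept, scaled by TMM factors and tested in edgeR 4.0.16 (R 4.3.3, quasi-likelihood, all 7 groups in 1 model, Benjamini-Hochberg threshold 0.05, no minimum fold). Printed CPM values use TMM-scaled totals. Fold changes come from the fit, first-named group over the second, and standard errors from the F statistic. Neighbours were the 3 genes of highest correlation (log2 CPM, pseudocount 0.5) among genes with a mean of at least 5 CPM. Of each pathway list, called genes and the 2 of highest mean CPM could be named; the text gives some of them, and 1 is not reported here. Lengths and coordinates came from GENCODE M21. The length slope is the slope, per library, of log2 CPM minus the gene's mean on log2 exonic length. Scripts were tested on simulated counts. The members, lists and naming rule were chosen with earlier results of these data known. Alternatives were DESeq2 1.42.0, other filters and scalings, a length covariate, a replicate block, single comparisons alone, and libraries left out.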

Additional observations from a re-analysis of the deposited data

Results flagged for a closer look

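Members were flagged where every library of 1 group lay above the comparison group's mean and every library of another lay below it, on the log2 CPM scale. Against Sham this held for AB_Implant and AB in Irs2, with a difference of 2.20 between their mean log2 values (0.92 in AB_Implant and -1.28 in AB), and in Insr, with a difference of 0.76 (0.46 in AB_Implant and -0.30 in AB). The fitted comparison of AB_Implant with AB gave an adjusted p of 0.645 for Insr by edgeR, and none is given for Irs2, whose AB_Implant values entered its choice.

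Against AB it held for AB_LLVNS10min_1w, which lay above, and AB_LLVNS20min_4w, which lay below. The difference between their mean log2 values was 2.31 in Pik3r1, 1.70 in Foxo3, 1.12 in Trib1 and 0.38 in Akt2. These 4 differences were not tested. The AB_LLVNS10min_1w library of the steepest length slope was 3.15 above the AB mean in Pik3r1, and the lowest of that group was 0.14 above it.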

How the results depend on the processing

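Over 30 settings and 40 fold changes, 1121 values kept direction and side of the threshold, 26 passed it anew, 14 fell short of it and 13 changed sign. The number of members called moved as follows, with all genes called in the same fit in brackets where given. AB_Implant against Sham gave 0 by the planned test, 2 with DESeq2, 2 with the length slope as a covariate, 2 without the 3 steepest libraries and 1 in a fit on both groups alone. AB_Implant against AB gave 1 with DESeq2 (68) and 1 with the length covariate (50). Against AB_Implant, AB_LLVNS20min_1w gave 1 with DESeq2, 2 with the covariate and 1 without the steepest libraries, AB_LLVNS20min_2w 2 with the covariate and 3 without the steepest libraries, and AB_LLVNS10min_1w 1 with the covariate. All stimulated against unstimulated banded hearts gave 2 with the covariate and 3 without the steepest libraries. AB_LLVNS20min_4w against AB_Implant gave 2 as reported, 3 with DESeq2, 0 at a mean of at least 5 CPM (where Irs2 is not tested), 1 with library totals without mitochondrial genes, 4 without the steepest libraries, 6 on both groups alone, and 0 to 2 when single libraries were left out. It was 0 without AB_LLVNS20min_4w replicate 1 or 3 or AB_Implant replicate 1 or 3, and 1 without AB_LLVNS20min_4w replicate 2 or AB_LLVNS20min_1w replicate 1. Of all genes, 39 passed there by the planned test. Many more did with DESeq2, without the steepest libraries and on both groups alone, so nothing is read from these higher counts. Against AB_Implant, 56, 21 and 19 genes passed as planned for weeks 1 and 2 and 10 min. More passed in each setting with a higher count of members.

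Same-numbered replicates did not deviate together (median correlation -0.06 over 63 pairs, 18 over 0.1), and 8 of 21 libraries correlated best with their own number, so the numbers were not read as pairs. With the replicate block AB_LLVNS20min_4w against AB_Implant gave 0 members, and the block changed no other count of members.

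Signs turned with the length covariate for Irs1 (0.35), Pik3r1 (0.10) and Foxo3 (0.36) in AB_LLVNS20min_4w against AB_Implant, and for Pik3r1 in AB_LLVNS20min_4w against AB (0.11). Without the steepest libraries Pik3r1 turned in AB_LLVNS10min_1w against AB_Implant (-0.30) and in AB_LLVNS20min_1w (-0.26) and AB_LLVNS20min_2w (-0.58) against AB, and Irs2 in AB_LLVNS10min_1w against AB (-0.07). Leaving out single libraries, the same 4 values ran from -0.36 to 1.55, -0.28 to 1.95, -0.62 to 2.26 and -0.10 to 2.16 in that order, each lowest without its steep library. Irs2 for 20 min against 10 min sessions ran from -1.82 to 0.09, highest without AB_LLVNS10min_1w replicate 2. The cause of these changes was not tested. Irs2, Irs1, Foxo1, Foxo3 and Igf1 held under 20 counts in several libraries, which limits their precision. The lowest counts of Trib1 and Pik3r1 were 13 and 16.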
